A study of Homo sapiens with 87 samples.

Results

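Described here are 8 genes for secreted or matrix-bound protease inhibitors, out of 35438 genes listed in both gene-level count tables: PI15, A2M, SERPINE2, TFPI, TFPI2, TIMP1, TIMP2 and TIMP3. They were chosen by name as a set of inhibitors around PI15, which stood more than 100-fold higher in SMARCA4 knockout cells, and A2M, which stood highest in ACTB knockout cells. The values that selected them came from the SMARCA4 clones 2878-4 and 2878-6 and the ACTB clone against wild type, so in those comparisons every member is described and none is tested. The choice also read the levels of the double-loss libraries, so PI15 in their SMARCA4 knockouts against wild type is described without a test too. The filter on low counts kept 8 of the 8 members in the knockout table and 7 of them for the double-loss libraries, where A2M did not pass.

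Secreted protease inhibitors set how long active proteases work outside the cell. Serpins such as SERPINE2 trap serine proteases in a covalent complex, alpha-2-macroglobulin encloses proteases of every class in a cage, Kunitz-domain inhibitors such as TFPI and TFPI2 block the active site of serine proteases, and the TIMP proteins bind matrix metalloproteinases. PI15 belongs to the CAP family of cysteine-rich secretory proteins and was first described as an inhibitor of trypsin. SMARCA4 is an ATPase of the BAF (SWI/SNF) complexes, which move nucleosomes, and ACTB, the cytoplasmic beta-actin, is also a subunit of these complexes.

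The study sequenced polyadenylated RNA of HAP1, a near-haploid human cell line that descends from a chronic myeloid leukaemia. In the knockout table, 24 clones with 1 disrupted gene each (ACTB, ARID1A, ARID1B, ARID2, BCL11A, BCL11B, BCL7A, BCL7B, BRD7, BRD9, DPF1, DPF2, DPF3, PBRM1, PHF10, SMARCA2, SMARCA4, SMARCC1, SMARCC2, SMARCD1, SMARCD2 or SMARCD3) and unedited wild-type HAP1 had 3 libraries each, 75 in all. ARID1A and SMARCA4 had 2 clones each (618-10 and 618-3, 2878-4 and 2878-6), and every other gene had 1, so that loss of the gene and other features of its clone cannot be told apart. The double-loss table held 12 libraries, 2 for each of 6 groups: SMARCA4 knockout with ARID2 knockdown, SMARCA4 knockout with control knockdown, ARID2 knockout with SMARCA4 knockdown, ARID2 knockout with control knockdown, wild type with knockdown of both genes, and wild type with control knockdown. The SMARCC2 samples of the knockout table were registered with the double-loss samples, apart from wild type and the other 23 clones, so that loss of SMARCC2 and other differences between these sets cannot be told apart, also where SMARCC1 is set against SMARCC2. All of the 12 double-loss libraries carried a knockdown reagent, which the labels name as si in one field and sh in another. Whether the libraries of a group are separate cultures is not stated, so p-values reflect the spread among these libraries and no more.

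The double-loss libraries held 9144150 to 19789622 counts each, and the knockout libraries 14917644 to 29993652. The targeted mRNA was called lower in 14 of 24 clones, with a log2 fold change of -4.20 and -4.09 for SMARCA4 in its clones and of -5.04 for ACTB, whereas it was not called in the other clones, ARID1A 618-10 (-0.90), ARID2 (-0.67), SMARCC2 (-0.75) and BCL11B (0.45) among them. SMARCA4 stood at 10.7 and 28.3 CPM (counts scaled to a common library total) in ARID2 knockout with SMARCA4 knockdown and at 43.1 and 129 CPM in wild type with both knockdowns, against 297 and 317 CPM in wild type with control knockdown. ARID2 was at 27.9 and 23.7 CPM in SMARCA4 knockout with ARID2 knockdown, against 45.1 and 30.9 CPM in wild type with control knockdown, and ARID2 knockout with control knockdown still had 29.6 and 29.8 CPM. The mRNA levels of targeted genes do not show how much working protein was left in clones or after knockdown. Markers of A549, a lung carcinoma line named in the same growth protocol, summed to between 1.64 and 14.6 CPM over 10 genes in the knockout libraries. Blood lineage markers summed to between 2.68 and 84.1 CPM over 12 genes there, with MPO and HBG1 never above the lowest listed value. The part of these marker levels in the results was not tested. No value in either table was under 1, so 1 count is the lowest listed value and a gene at 1 may have had no reads.

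Levels of different genes can be compared only per length, and the authors' log2 TPM table gives them for wild type. TIMP1 was highest at 6.07 ± 0.12 (SD, n = 3), followed by TIMP2 at 5.42 ± 0.18, PI15 at 3.79 ± 0.52, TIMP3 at 3.14 ± 0.097 and TFPI at 2.55 ± 0.17. SERPINE2, at -0.171 ± 0.18, TFPI2, at -0.399 ± 0.18, and A2M, at -1.95 ± 1.2, were close to the lower end of that scale. The range of group means on this scale was widest for PI15, from -0.18 to 11.3 over 24 groups, and narrowest for TIMP1, from 5.63 to 6.44. The SMARCC2 clone, which had the lowest mean CPM of both genes, is not on this scale.

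Calls below are genes with an adjusted p of at most 0.05 by edgeR's quasi-likelihood test over all 16159 genes tested in the knockout table (14601 for the double-loss libraries), whose log2 fold change also reached 1 in either direction. Of the 8 members, 2 (PI15 and TFPI2) were past these limits in SMARCA4 clone 2878-4, where 11.3% of all genes were, the same 2 were in clone 2878-6 (10.2% of all genes), and 4 (A2M, SERPINE2, TIMP2 and TIMP3) were in the ACTB clone (5.1% of all genes). These are the comparisons that chose the members.

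Among the 21 other clones, members were called in every clone but DPF1 (0 of 8, against 1.49% of all genes) and DPF3 (0 of 8, against 1.34%). The BCL7B clone had 5 of 8, with A2M, SERPINE2, TFPI and TFPI2 higher and PI15 lower (6.12% of all genes). The SMARCC2 clone had 4 lower, PI15, A2M, TFPI2 and TIMP3 (6.49%). In the ARID1A clones 3 members were higher in 618-10 (PI15, SERPINE2 and TFPI2, 6.28%) and 2 in 618-3 (PI15 and SERPINE2, 6.1%). The ARID1B clone had TFPI2 higher and PI15 and TIMP3 lower (6.86%), and the ARID2 clone had 3 lower, PI15, TFPI2 and TIMP3 (5.53%). The SMARCC1 clone had PI15 higher and TFPI2 and TIMP3 lower (6.1%), and the BCL11A clone had SERPINE2 higher and PI15 and TFPI2 lower (4.14%). PI15 and TFPI2 were both lower in BCL11B (3.81%), PBRM1 (2.96%), SMARCD1 (4.57%) and SMARCD3 (3.47%). The SMARCD2 clone had PI15 higher and TFPI2 lower (2.8%), and the SMARCA2 clone had TFPI2 higher and PI15 lower (2.19%). SERPINE2 was higher and TFPI2 lower in BCL7A (3.54%) and PHF10 (2.68%). A2M was higher and SERPINE2 lower in BRD7 (3.55%). The BRD9 clone had PI15 lower (3.28%) and the DPF2 clone had SERPINE2 higher (2.98%). All 21 comparisons share the same 3 wild-type libraries, so a wild-type library that stands high or low moves all of them at once.

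**Figure D1:**
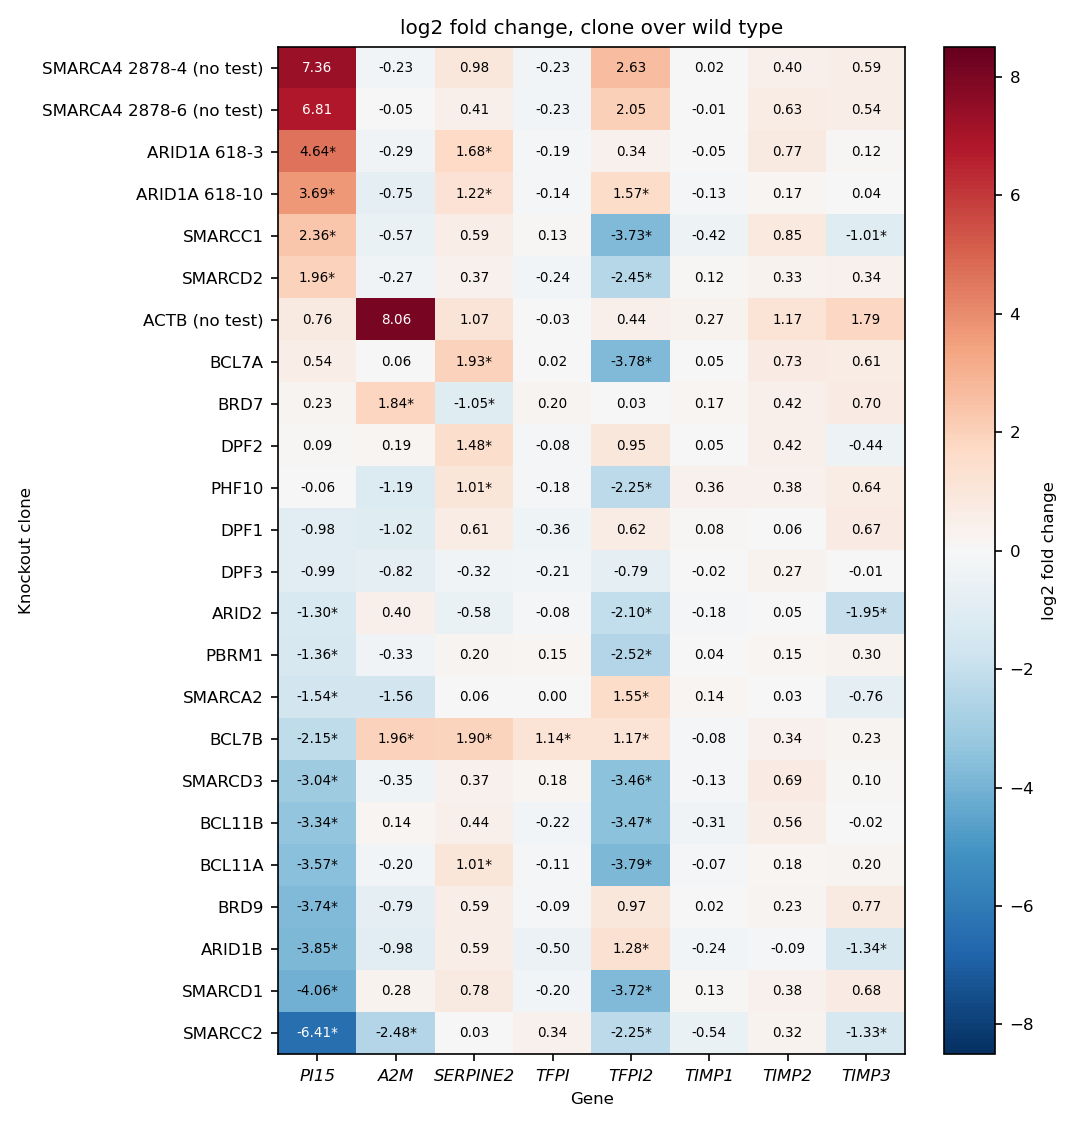
Log2 fold change of each inhibitor gene (columns) in each knockout clone over wild type (rows, ordered by PI15), n = 3 libraries per group, with red for higher and blue for lower in the clone and an asterisk for called values. PI15 ranges from 7.36 in SMARCA4 2878-4 to -6.41 in SMARCC2, A2M reaches 8.06 in ACTB, and the TIMP1 column stays between -0.54 and 0.36, while the 3 rows that chose the members carry no test.

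PI15 covered the widest range of all members. In SMARCA4 clone 2878-4 it had 2039, 2222 and 2691 CPM, against 9.69, 20.2 and 12.8 CPM in wild type. In clone 2878-6 it had 1474, 1601 and 1707 CPM, so every SMARCA4 library lay far above every wild-type library. The log2 fold changes were 7.36 (SE 0.224) and 6.81 (SE 0.219), given without a test. In bulk RNA, more cells with the transcript and more transcript per cell cannot be told apart. Clone 2878-4 was above clone 2878-6 by 0.55 on the log2 scale (SE 0.166, adjusted p = 0.0462), which is under the fold limit for a call, and 0 of 8 members were called between these clones, where 1.85% of all genes were.

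Both ARID1A clones came next in the order of PI15 levels. ARID1A clone 618-3 had 377, 327 and 383 CPM and clone 618-10 had 178, 176 and 206 CPM, all above wild type. PI15 rose by 4.64 on the log2 scale in 618-3 (SE 0.201, adjusted p = 8.71e-27) and by 3.69 in 618-10 (SE 0.194, adjusted p = 5.93e-23). The gene also rose in the SMARCC1 clone, with 69.4, 76.0 and 76.1 CPM (log2 fold change 2.36, SE 0.188, adjusted p = 1.28e-15), and in the SMARCD2 clone, with 66.5, 53.7 and 48.0 CPM (1.96, SE 0.187, adjusted p = 2.44e-12). ARID1A is a defining subunit of the canonical BAF complex, SMARCC1 is a core scaffold subunit, and SMARCD2 is one of a set of alternative core subunits.

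Each of these subunits has a relative that can take its place in the complex, and in the clones without that relative PI15 was lower than in the wild type of the knockout table. Lower PI15 was not particular to these clones. It was called lower in 11 of the 21 tested clones and higher in 4. Those with lower PI15 included BRD9 (-3.74), BCL11A (-3.57) and BCL11B (-3.34). Wild type with control knockdown, from the separately processed double-loss table, had 0.191 and 0.247 CPM, below the ARID1B and SMARCD1 clones and level with SMARCC2. The calls of lower PI15 are against the 3 wild-type libraries of the knockout table, and the difference between these wild types was not tested. The ARID1B clone had 0.595, 1.00 and 1.32 CPM (log2 fold change -3.85, SE 0.284, adjusted p = 7.44e-17). The SMARCC2 clone had 0.167, 0.217 and 0.114 CPM, the lowest of the 25 groups, and the SMARCD1 clone had 0.832, 0.667 and 1.10 CPM (-4.06, SE 0.290, adjusted p = 2.96e-17). In SMARCC2 the 3 libraries held 11 PI15 counts in all, against 907 in wild type, an 87.5-fold lower level with a 95% interval of 48.6 to 176 that covers counting error only (exact, from the binomial share of the summed counts); the fitted log2 fold change was -6.41 (SE 0.380, adjusted p = 1.39e-20). In the SMARCC2 clone, genes richer in GC had higher fold changes (across genes, Spearman's rho was 0.476, against -0.0906 to 0.211 in the other 23 clones), and PI15 had the lowest GC of the members in its longest GENCODE transcript, 33.0%. The part of this trend in the SMARCC2 values was not tested. Without this clone, whose samples were registered apart from wild type, PI15 and TFPI2 were each called higher in 4 and lower in 10 of 20 clones, A2M was called in 2 and TIMP3 in 3.

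The 2 clones of each such pair were also set directly against each other, with no wild-type library in the comparison. In each pair the clones lay on opposite sides of the wild type of the knockout table. A difference larger than either had from wild type therefore followed from the choice of pairs. PI15 was higher in ARID1A 618-3 than in ARID1B by 8.49 on the log2 scale (SE 0.269, adjusted p = 1.06e-32) and higher in ARID1A 618-10 than in ARID1B by 7.54 (SE 0.266, adjusted p = 6.38e-31). It was higher in SMARCC1 than in SMARCC2 by 8.76 (SE 0.337, adjusted p = 1.75e-29) and higher in SMARCD2 than in SMARCD1 by 6.02 (SE 0.272, adjusted p = 3.00e-26). These 4 comparisons were added after the data had been seen, so their adjusted p-values are no separate evidence. Other members called in them were SERPINE2 and TIMP3, both higher in ARID1A 618-3 than in ARID1B (3 of 8 members with PI15, against 8.53% of all genes), and TIMP3, higher in ARID1A 618-10 than in ARID1B (2 of 8, against 9.01%). PI15 alone was called between SMARCC1 and SMARCC2 (10.7% of all genes) and between SMARCD2 and SMARCD1 (6.59%).

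In all, PI15 was called in 15 of the 21 clones, higher in 4 and lower in 11. Besides the clones above it fell in BRD9 (-3.74), BCL11A (-3.57), BCL11B (-3.34), SMARCD3 (-3.04), BCL7B (-2.15), SMARCA2 (-1.54), PBRM1 (-1.36) and ARID2 (-1.30). Only 132 of the 16159 genes tested, or 0.817%, were called in at least as many of these clones. Without wild-type replicate 2, the wild-type library with the highest PI15 level, the ARID2 value was -0.95 (adjusted p = 0.00131) and no longer past the fold limit. In DPF2, PHF10, BRD7 and BCL7A the fitted changes were between -0.06 and 0.54 and did not pass, and in DPF1 (-0.98) and DPF3 (-0.99) they were just under the fold limit. Of 24 neighbouring pairs in the order of group means, 10 did not overlap between their libraries, including each step down from the 6 highest groups.

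The nearest gene on each side of PI15 on chromosome 8 moved much less. CRISPLD1, a CAP family relative, averaged 31.1 ± 1.89 CPM in SMARCA4 clone 2878-4 and 32.1 ± 1.94 CPM in clone 2878-6, against 17.6 ± 0.699 CPM in wild type (SD, n = 3 each), and was called in 0 of the 21 other clones. GDAP1 averaged 50.3 and 44.3 CPM in clones 2878-4 and 2878-6, against 33.6 CPM in wild type, and was also called in 0 of 21. Though its changes were small, CRISPLD1 had a Pearson r of 0.739 with PI15 over the 25 groups, and GDAP1 had 0.104. Across the 25 group means of log2(CPM + 0.5), the genes whose pattern was most like that of PI15 among 11947 candidates were BMPR1A (Pearson r 0.952), a BMP receptor, KBTBD8 (0.946), ANKRD1 (0.939), RND3 (0.932) and EMP1 (0.930). With the highest group, SMARCA4 clone 2878-4, left out, these coefficients were between 0.918 and 0.943 over 24 groups. Clone 2878-6, also high in PI15, stayed in, so these values do not show how far the likeness rests on SMARCA4 knockout. The points share libraries and the wild-type background, so no p is given.

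**Figure D2:**
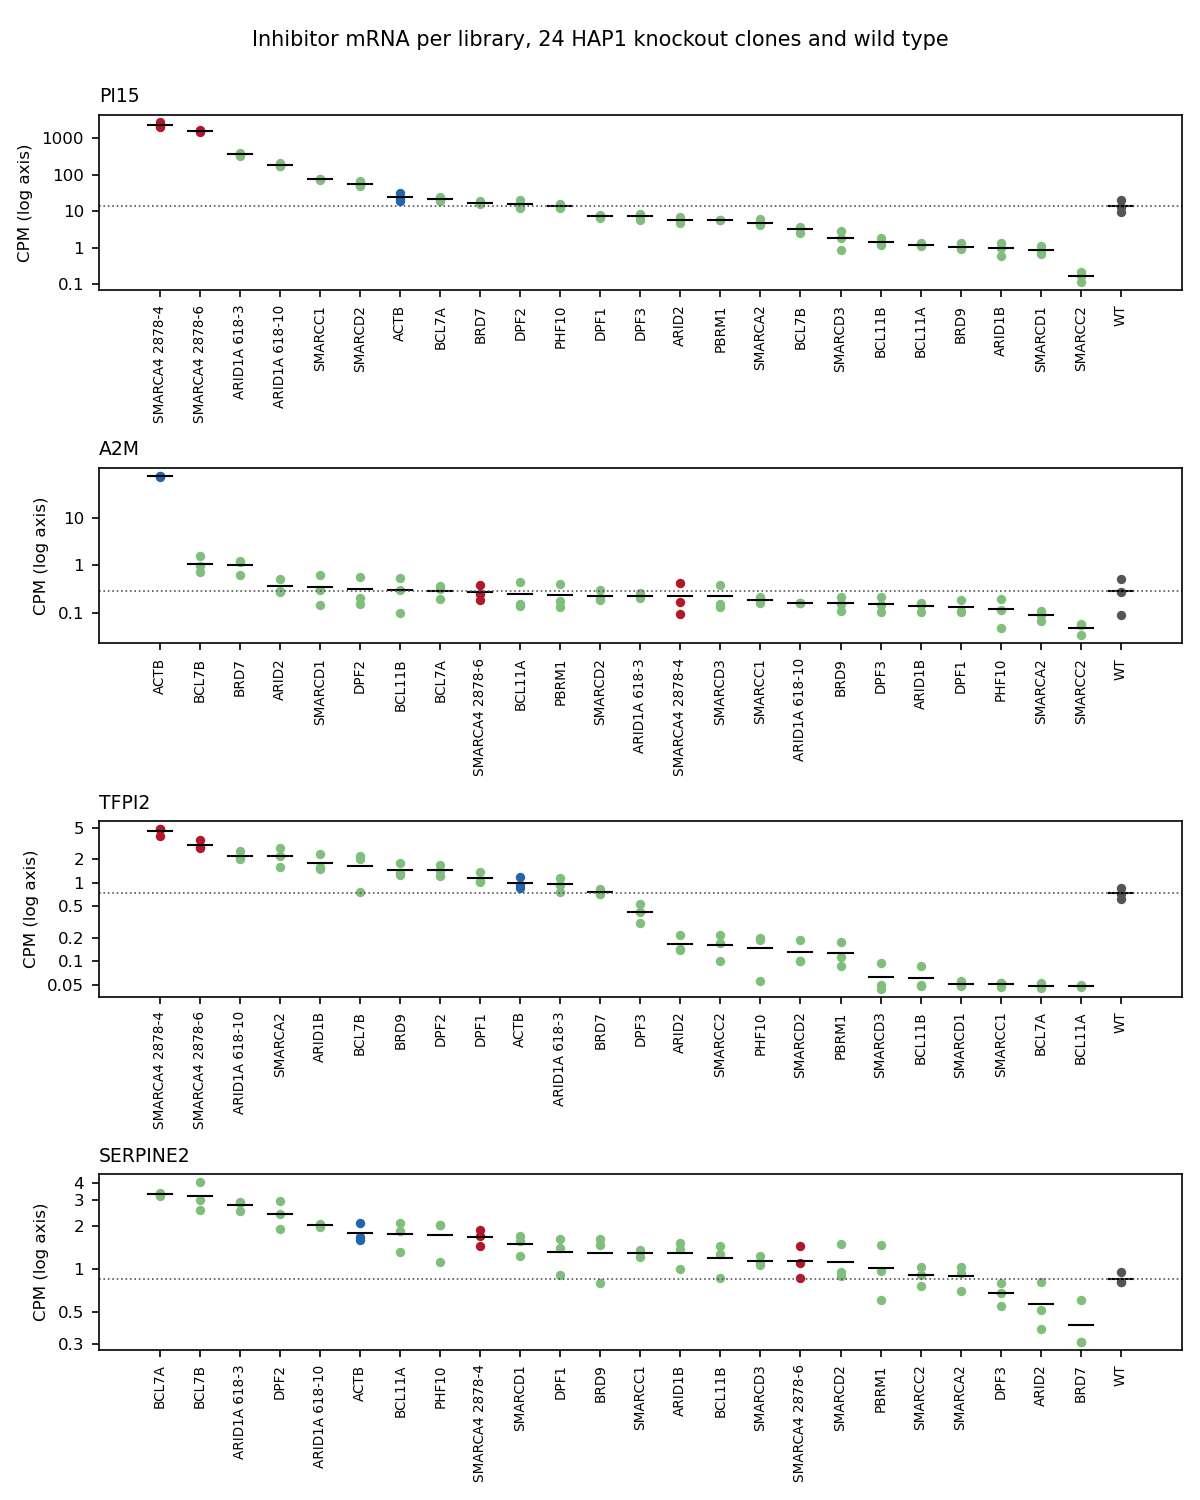
CPM of PI15, A2M, TFPI2 and SERPINE2 (log axes) in every library of the 24 knockout clones, ordered by mean, and of wild type at the right; points are libraries, bars are means of 3 and the dotted line is the wild-type mean. PI15 steps down from 2317 CPM in SMARCA4 2878-4 to 0.166 CPM in SMARCC2, A2M stands apart in ACTB alone, and TFPI2 falls into a higher set and a set near the lowest listed value.

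A2M, the broad-spectrum macroglobulin of plasma, was close to undetected in most groups and high in 1 clone. The ACTB clone had 76.1, 74.2 and 73.2 CPM, against 0.504, 0.270 and 0.0904 CPM in wild type. The wild-type libraries held 17 A2M counts in all, so the ratio of 273 has a 95% counting interval of 170 to 469, and the fitted log2 fold change was 8.06 (SE 0.375), given without a test. Without wild-type replicate 1, the wild-type library with the most A2M counts, it was 8.66. Of the remaining 23 clones, the group means lay between 0.0482 and 1.08 CPM.

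Among the tested clones, A2M was higher in BCL7B, with 0.711, 0.954 and 1.58 CPM (log2 fold change 1.96, SE 0.421, adjusted p = 2.99e-04), and in BRD7, with 1.24, 0.624 and 1.17 CPM (1.84, SE 0.429, adjusted p = 0.00167). These libraries lay above all wild-type libraries, but far below the ACTB clone. Without wild-type replicate 1 their values were 2.57 in BCL7B and 2.44 in BRD7. In SMARCC2 each library was at the lowest listed value of 1 count, which with a floor of 3 counts per library puts A2M at least 1.99-fold lower than in wild type, or at least 1.25-fold lower without wild-type replicate 1. That call (adjusted p = 0.00719) was lost without wild-type replicate 1 (adjusted p = 0.094) and without SMARCC2 replicate 1 (adjusted p = 0.0552), and the BRD7 call was lost in a fit of only the libraries compared (adjusted p = 0.0814). A2M was thus called in 3 of the 21 clones, and 10.1% of all genes tested were called in at least as many.

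KLRG1, which overlaps A2M on chromosome 12, averaged 2.42 CPM in the ACTB clone, against 2.86 CPM in wild type, and was called in 0 of the 21 tested clones. PZP, the neighbouring gene for a relative of A2M, had 0.101 CPM in the ACTB clone, against 0.0638 CPM in wild type, too low for the test. Another overlapping gene, A2M-AS1, was not analysed here, and since the sources do not state whether reads were counted by strand, its reads and those of A2M cannot be told apart. The patterns most like that of A2M were those of CDH13 (Pearson r 0.951), VPS25 (0.942), COA3 and TPH2 (0.940 each) and UBE3A (0.905). Without the ACTB clone the same 5 coefficients lay between -0.101 and 0.235.

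SERPINE2, also called protease nexin, is a serpin that inhibits thrombin and plasminogen activators at the cell surface. Its levels were low, with 0.953, 0.809 and 0.814 CPM in wild type. It was called in 8 of the 21 tested clones, higher in 7 and lower in 1. Calls in at least as many clones were found for 3.51% of all genes tested. The highest level was in BCL7A, with 3.21, 3.37 and 3.34 CPM (log2 fold change 1.93, SE 0.263, adjusted p = 7.67e-08), and BCL7B had 2.59, 3.05 and 4.02 CPM (1.90, SE 0.263, adjusted p = 5.20e-08). Both clones lack a member of the BCL7 family of small BAF subunits, and all 6 of these libraries lay above wild type. SERPINE2 also rose in ARID1A 618-3 (1.68) and 618-10 (1.22) and in DPF2 (1.48).

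The calls in BCL11A (1.01), PHF10 (1.01) and BRD7 (-1.05) sat at the fold limit. The BRD7 clone had 0.311, 0.312 and 0.606 CPM, below wild type in every library. These 3 calls were lost in a fit of only the libraries compared (adjusted p between 0.0575 and 0.134), and the count of SERPINE2 calls was 5 in that fit. Leaving out a wild-type library or a library of the clone also ended each of them in some cases: without wild-type replicate 2 the log2 fold changes were 0.98 in BCL11A, 0.97 in PHF10 and -1.09 in BRD7, with adjusted p of 0.042, 0.0586 and 0.0505, and without replicate 2 of the clone they were 0.86, 0.89 and -0.90. In the comparisons that chose the members, SERPINE2 had 1.66, 1.59 and 2.09 CPM in the ACTB clone, 1.69, 1.86 and 1.45 CPM in SMARCA4 2878-4 and 0.863, 1.44 and 1.09 CPM in 2878-6. Its neighbour MRPL44 was between 68.7 and 89.5 CPM in all 25 groups and was called in 0 of 21 clones. FAM124B, on the other side, averaged 2.17 CPM in wild type and was called in 14 of 21 clones, 13 of them lower. The genes closest in pattern to SERPINE2 were CHRNA3 (Pearson r 0.763), SH3PXD2A (0.714) and CTNNAL1 (0.701).

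TFPI, the plasma inhibitor of the tissue factor and factor VIIa complex, varied little. Wild type had 4.99, 5.66 and 6.51 CPM, and 24 of the 25 group means lay between 4.05 and 7.41 CPM. The exception was BCL7B, with 14.4, 14.4 and 9.32 CPM, the only called clone (log2 fold change 1.14, SE 0.248, adjusted p = 3.77e-04). Of all genes tested, 21.6% were called in at least 1 of the 21 clones. In the SMARCA4 and ACTB clones the TFPI levels overlapped those of wild type. The genes with the nearest pattern, C12orf76 (Pearson r 0.816), GABRP (0.808) and PHF2 (0.805), had coefficients between 0.519 and 0.602 without the BCL7B clone.

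TFPI2, a matrix-bound Kunitz inhibitor of plasmin and trypsin, was as widely changed as PI15, with calls in 15 of the 21 clones, higher in 4 and lower in 11. In wild type it had 0.728, 0.629 and 0.859 CPM. SMARCA4 clone 2878-4 had 4.83, 4.88 and 3.92 CPM and clone 2878-6 had 2.86, 2.78 and 3.51 CPM, the 2 highest group means (log2 fold changes 2.63 and 2.05, with no test). Among tested clones TFPI2 rose in ARID1A 618-10, with 2.52, 2.12 and 2.01 CPM (1.57, SE 0.246, adjusted p = 9.50e-07), in SMARCA2, with 2.75, 1.62 and 2.18 CPM (1.55, SE 0.246, adjusted p = 5.16e-06), and in ARID1B, with 2.33, 1.58 and 1.51 CPM (1.28, SE 0.248, adjusted p = 4.93e-05). All 9 of these libraries lay above wild type. In BCL7B, where 0.762, 2.05 and 2.18 CPM overlapped wild type, the call (1.17, adjusted p = 2.39e-04) was lost without BCL7B replicate 3, at 0.93, and in a fit of only the libraries compared (adjusted p = 0.0928).

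In 11 clones TFPI2 was near or at the lowest listed value. Each library of BCL11A, BCL7A, SMARCC1 and SMARCD1 had 1 count, which with a floor of 3 counts per library makes TFPI2 at least 5.08-fold, 5.05-fold, 4.88-fold and 4.78-fold lower there than in wild type. BCL11B and SMARCD3 had 4 counts in 3 libraries each, against 46 in wild type, an 11.8-fold lower level in both with 95% counting intervals of 4.30 to 45.0 and 4.29 to 45.0. ARID2, PBRM1, PHF10, SMARCC2 and SMARCD2 had 8 to 10 counts each and ratios from 4.47-fold to 5.85-fold lower, with intervals that together run from 2.22 to 14.4. All 11 passed the test (adjusted p of 2.66e-05 or less), and in none of them did a library overlap wild type. With totals of this size, the fitted log2 fold changes of -2.10 to -3.79 depend on how the fit treats near-zero counts.

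TFPI2 and PI15 were called in the same direction in more of the tested clones than in opposite directions. Both were higher in ARID1A 618-10, and both were lower in ARID2, BCL11A, BCL11B, PBRM1, SMARCC2, SMARCD1 and SMARCD3. The directions were opposite in 5 clones. SMARCC1 and SMARCD2 had higher PI15 with TFPI2 near the lowest listed value, while ARID1B, SMARCA2 and, where its TFPI2 call held, BCL7B had lower PI15 with higher TFPI2. Between the 2 ARID1A clones, 618-10 was higher than 618-3 in TFPI2 (2.22 ± 0.268 CPM in 618-10 and 0.955 ± 0.204 CPM in 618-3, SD, n = 3 each, log2 fold change 1.22, adjusted p = 4.58e-04), the 1 member of 8 called between them, where 1.26% of all genes were. That call was lost in a fit of only the libraries compared (adjusted p = 0.0709) and without replicate 2 of both clones (adjusted p = 0.11). PI15 lay the other way, at 186 CPM in 618-10 and 363 CPM in 618-3 (-0.95, SE 0.169, adjusted p = 9.01e-05), just under the fold limit. CALCR, the calcitonin receptor gene beside TFPI2 on chromosome 7, was at 3.99 and 4.00 CPM in the SMARCA4 clones, against 0.191 CPM in wild type. Unlike TFPI2, CALCR was called higher in BCL7A (3.01, adjusted p = 6.60e-13), PHF10 (2.48) and SMARCD1 (1.90). In the same direction as TFPI2, CALCR was called higher in BCL7B (2.59, adjusted p = 1.22e-10) and lower in SMARCC2 (-1.97, adjusted p = 0.0346). In SMARCC2 it averaged 0.0482 CPM. GNGT1, on the other side, was called in 0 of 21 clones. RAB32 (Pearson r 0.822), CYB5B (0.767) and FAM19A4 (0.756) had the patterns nearest to that of TFPI2.

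The TIMP genes, for inhibitors that bind the active site of matrix metalloproteinases, differed in how much they varied, with TIMP1 and TIMP2 the most even of all members by the ratio of the highest to the lowest group mean (1.82 and 2.39) and TIMP3 at 13.4. TIMP1 had 72.3, 61.3 and 67.5 CPM in wild type and group means from 47.2 CPM in SMARCC2 to 86.0 CPM in PHF10. It was called in 0 of 21 clones, at most -0.54 in SMARCC2 (SE 0.106, adjusted p = 5.46e-05), where 47.0, 46.0 and 48.6 CPM lay below every wild-type library. TIMP2 had 37.0, 46.5 and 44.4 CPM in wild type and was also called in 0 of 21 clones. It was nonetheless above every wild-type library in 12 of the 21 clones, at folds below the limit. The change was largest in SMARCC1, with 76.2, 66.8 and 88.7 CPM (0.85, adjusted p = 8.84e-06). ARID1A 618-3 followed, with 72.1, 75.9 and 73.4 CPM (0.77, adjusted p = 5.29e-05). BCL7A (0.73, adjusted p = 2.56e-04), SMARCD3 (0.69, adjusted p = 6.37e-04) and BCL11B (0.56, adjusted p = 0.00683) came next. In the rest of the 12 the adjusted p was 0.0602 or more. Wild type itself was low, at a mean of 42.6 CPM, with only the ARID1B clone lower (39.8 CPM). In the ACTB clone TIMP2 had 92.6, 83.8 and 108 CPM (1.17, no test).

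TIMP3, the TIMP that is held in the extracellular matrix, had the clearest pattern of the family. It was called in 4 of 21 clones, lower in all 4, and 7.79% of all genes tested were called in at least as many. The ARID2 clone had 2.89, 1.74 and 1.98 CPM, against 7.90, 9.40 and 8.59 CPM in wild type (log2 fold change -1.95, SE 0.151, adjusted p = 4.64e-16). ARID1B, with 3.52, 3.48 and 3.21 CPM, fell by 1.34 on the log2 scale (SE 0.145, adjusted p = 4.21e-11), and SMARCC2, with 3.37, 3.81 and 3.41 CPM, fell by 1.33 (SE 0.144, adjusted p = 6.71e-11). The SMARCC1 value, -1.01, sat at the fold limit and was -0.94 without wild-type replicate 2, -0.92 without SMARCC1 replicate 3, -0.98 without a filter on low counts and -0.99 in a fit of only the libraries compared. No library of these 4 clones overlapped wild type. In 6 other clones, BRD9 (0.77), BRD7 (0.70), SMARCD1 (0.68), DPF1 (0.67), PHF10 (0.64) and BCL7A (0.61), TIMP3 was above every wild-type library at folds below the limit (adjusted p of 6.79e-04 or less). PBRM1, SMARCD2 and BCL7B also had every library above wild type but did not pass (0.30, 0.34 and 0.23, adjusted p = 0.201, 0.131 and 0.25). SMARCA2 (-0.76, adjusted p = 9.56e-05) and DPF2 (-0.44, adjusted p = 0.0404) had every library below wild type at folds under the limit. In the ACTB clone TIMP3 was highest of all groups, with 27.2, 29.0 and 32.2 CPM (1.79, no test).

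TIMP3 lies within SYN3, a synapsin gene on the opposite strand. SYN3 rose in 3 of the 4 clones where TIMP3 fell, by 2.06 on the log2 scale in SMARCC2 (adjusted p = 1.16e-11), 1.96 in ARID1B (adjusted p = 3.84e-11) and 1.38 in SMARCC1 (adjusted p = 4.50e-07), and had -0.78 in ARID2 (adjusted p = 0.00881). Across the 25 group means the Pearson r between TIMP3 and SYN3 was -0.537. The libraries were made with a strand-marking kit, but whether counting used the strand is not given in the sources used here, so reads of the overlapping parts of TIMP3 and SYN3, and of TIMP1 and SYN1, in which TIMP1 lies, may have been split between them. SYN1 had between 0.201 and 0.995 CPM in all groups. MCAM was closest in pattern to TIMP1 (Pearson r 0.797), PTMS to TIMP2 (0.693) and MYL6 to TIMP3 (0.766). TIMP1 was next followed by CNN3 (0.736) and YME1L1 (0.721), TIMP2 by THY1 (0.685) and FZD7 (0.682), and TIMP3 by FBLIM1 (0.742) and PDHB (0.709).

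**Figure D3:**
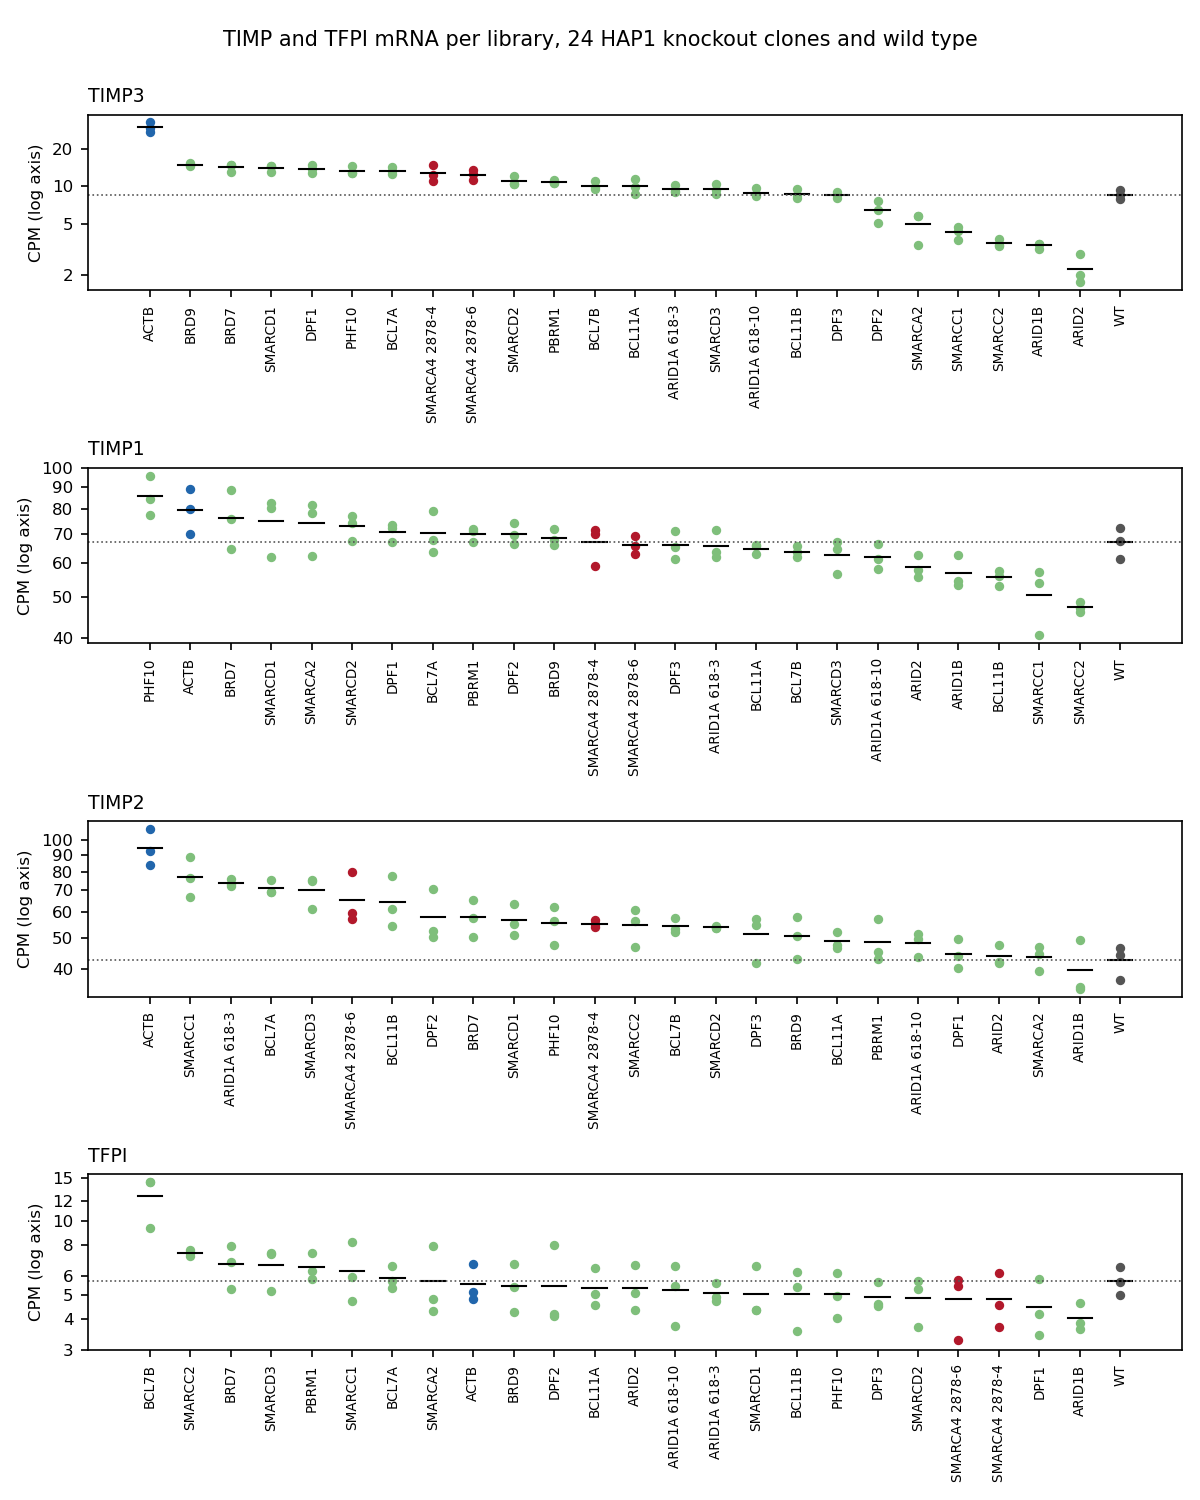
CPM of TIMP3, TIMP1, TIMP2 and TFPI (log axes) in every library of the 24 knockout clones, ordered by mean, and of wild type at the right; points are libraries, bars are means of 3 and the dotted line is the wild-type mean. TIMP3 ranges from 29.5 CPM in ACTB to 2.20 CPM in ARID2, while TIMP1 and TIMP2 stay within 47.2 to 86.0 and 39.8 to 94.9 CPM and TFPI stands apart in BCL7B alone.

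The double-loss libraries hold a second set of SMARCA4 knockout cells. Members were chosen with these values known, so tests in them are no independent evidence. PI15 had 77.3 and 44.0 CPM in SMARCA4 knockout with control knockdown and 122 and 87.7 CPM in SMARCA4 knockout with ARID2 knockdown, against 0.191 and 0.247 CPM in wild type with control knockdown. The log2 fold changes were 8.04 (SE 0.488) with control knockdown, where 6.09% of all genes were called, and 8.83 (SE 0.491) with ARID2 knockdown, where 8.55% were, both given without a test. None of the 6 other members tested passed in either comparison. The wild-type libraries held 6 PI15 counts in all, so the ratios of 289 and 498 have 95% counting intervals of 133 to 790 and 229 to 1360. The ARID2 knockdown within the SMARCA4 knockout left PI15 at 0.79 above the control knockdown (SE 0.293, adjusted p = 0.70), and 0 of 7 members were called there, where 0.0205% of all genes were.

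PI15 stayed low where SMARCA4 was lowered by knockdown. In wild type with knockdown of both genes PI15 had 0.482 and 0.253 CPM, in ARID2 knockout with SMARCA4 knockdown 0.556 and 0.167 CPM, and in ARID2 knockout with control knockdown 0.109 and 0.0889 CPM, which is the lowest listed value. None of these passed the test against wild type with control knockdown (log2 fold changes 0.72, 0.63 and -1.07, adjusted p = 0.735, 0.648 and 0.911). With 1 to 9 counts per library, these levels cannot be ordered at this depth. SMARCA4 mRNA remained at 86.3 CPM on average in wild type with both knockdowns and at 19.5 CPM in ARID2 knockout with SMARCA4 knockdown, against 25.1 CPM in SMARCA4 knockout with control knockdown. These libraries do not measure protein, so the mRNA levels do not rank the loss of SMARCA4 between knockdown and knockout.

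TIMP1 was lower in every altered group of this table than in wild type with control knockdown, where it had 59.4 and 65.8 CPM. ARID2 knockout with SMARCA4 knockdown had 19.0 and 8.79 CPM, where it fell by 2.24 on the log2 scale (SE 0.412, adjusted p = 0.00547). Without replicate 1 of that group it fell by 2.85 (adjusted p = 0.0122). Wild type with both knockdowns had 10.3 and 26.7 CPM (-1.76, adjusted p = 0.0742), ARID2 knockout with control knockdown 30.2 and 27.0 CPM (-1.13, adjusted p = 0.291), SMARCA4 knockout with ARID2 knockdown 30.2 and 33.4 CPM (-1.02, adjusted p = 0.122), and SMARCA4 knockout with control knockdown 36.7 and 43.3 CPM (-0.69, adjusted p = 0.375). None of these 10 libraries overlapped wild type, but only the first comparison passed. All 5 share the same 2 wild-type libraries. In wild type with both knockdowns TIMP1 did pass with DESeq2 (adjusted p = 0.00115) and with the replicate number as a block (adjusted p = 0.0291), and in SMARCA4 knockout with ARID2 knockdown it passed in a fit of only the libraries compared (adjusted p = 0.0117).

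TFPI2 also fell in ARID2 knockout with SMARCA4 knockdown, with 0.185 and 0.167 CPM, against 1.40 and 1.24 CPM in wild type with control knockdown (log2 fold change -2.90, SE 0.513, adjusted p = 0.00448). The counts were 4 in all in that group and 37 in wild type, a 7.56-fold lower level with a 95% counting interval of 2.72 to 29.2. These 2 genes were the only members of 7 called in that comparison, where 9.31% of all genes were. ARID2 knockout with control knockdown had 0.328 and 0.356 CPM of TFPI2 (-1.92, adjusted p = 0.0791), and 0 of 7 members passed there (1.57% of all genes called). In contrast to the SMARCA4 clones of the knockout table, SMARCA4 knockout with control knockdown had 1.12 and 0.727 CPM of TFPI2, below both wild-type libraries (-0.55, SE 0.370, adjusted p = 0.484).

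TIMP3 had 7.81 and 12.3 CPM in SMARCA4 knockout with control knockdown and 2.19 and 1.87 CPM in ARID2 knockout with control knockdown, against 4.66 and 5.03 CPM in wild type with control knockdown. Neither passed the test (1.01, adjusted p = 0.0717, and -1.26, adjusted p = 0.122), though the first did with DESeq2 (adjusted p = 0.0487). SMARCA4 knockdown in the ARID2 knockout gave 5.93 and 3.85 CPM, above ARID2 knockout with control knockdown by 1.21 (adjusted p = 0.0716, and 0.0393 with DESeq2), and 0 of 7 members passed between those groups, where 2.88% of all genes did. SERPINE2 had 2.60 and 3.17 CPM in SMARCA4 knockout with control knockdown, against 1.08 and 1.24 CPM in wild type with control knockdown (1.27, adjusted p = 0.0964), which passed with the replicate number as a block (adjusted p = 0.0453). TIMP2 and TFPI had fitted changes between -0.52 and 0.40 against wild type in all 5 groups. In wild type with both knockdowns 0 of 7 members passed, against 0.562% of all genes. A2M had 1 to 3 counts in every one of the 12 libraries.

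**Figure D4:**
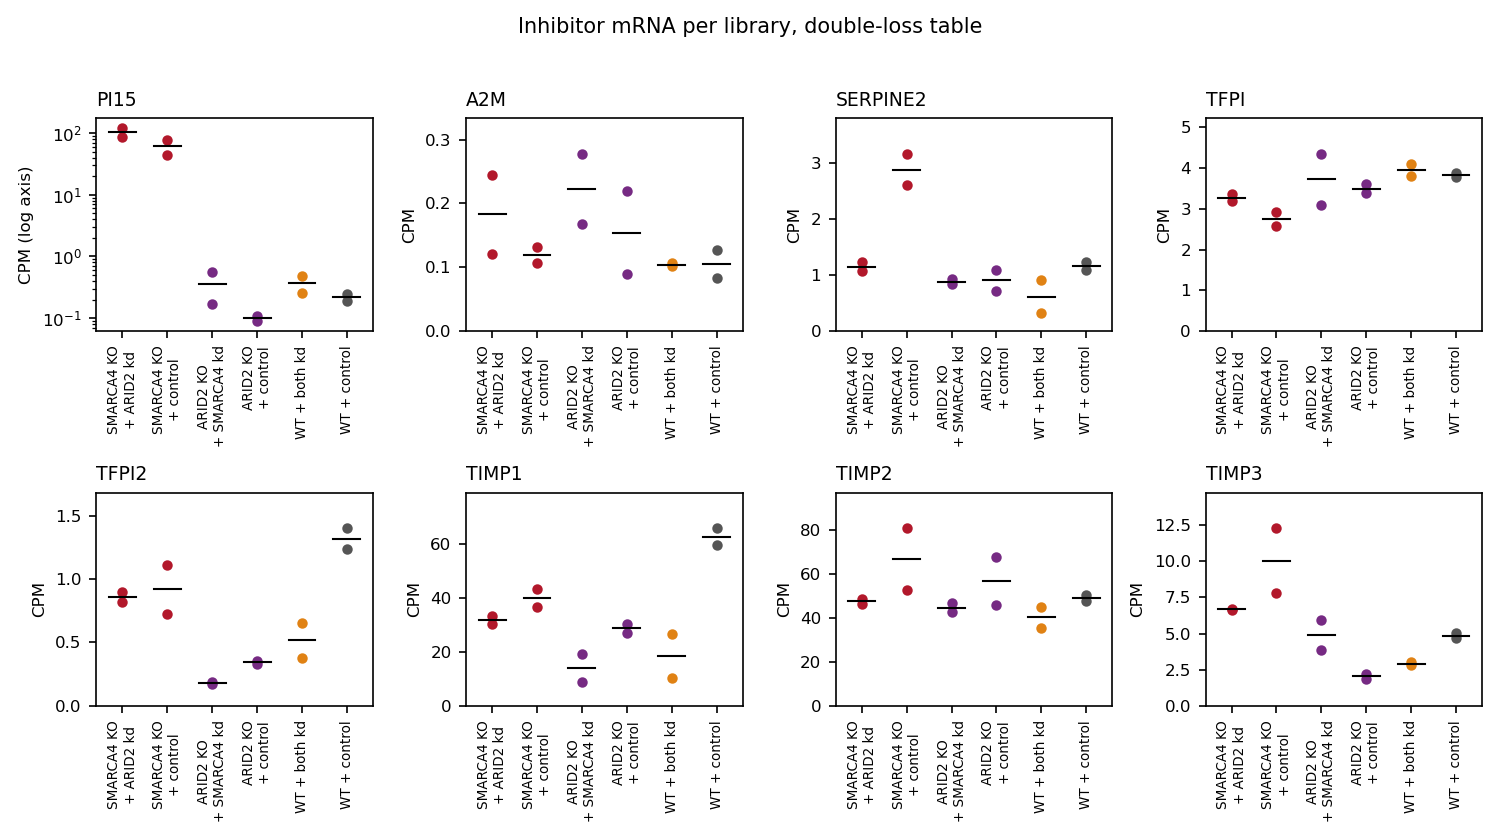
CPM of the 8 inhibitor genes in each of the 12 double-loss libraries (PI15 on a log axis, the others on linear axes from 0), with knockout (KO) and knockdown (kd) groups at the left and wild type with control knockdown at the right; points are libraries and bars are means of 2. PI15 is at 44.0 CPM or more in the 4 SMARCA4 knockout libraries and at 0.556 CPM or less in the other 8, and TIMP1 is highest in wild type with control knockdown.

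TFPI2 passed as lower both in the ARID2 clone and in ARID2 knockout with SMARCA4 knockdown. Of these 2 comparisons, TIMP3 and PI15 passed as lower in the ARID2 clone only (TIMP3 -0.05 and PI15 0.63 in the other). TIMP1 passed in ARID2 knockout with SMARCA4 knockdown only (-0.18 in the ARID2 clone). No member passed in ARID2 knockout with control knockdown. The 250 bases before the TFPI2, TIMP1 and TIMP3 starts are shown to let their base composition be compared. They are from RefSeq on GRCh38.p14, with CpG pairs in capitals. The count files rest on GRCh37 (hg19), per the submitters' processing notes, so these positions are not those of the files. TFPI2 is at chr7:93890754-93891003 on the minus strand, TIMP1 at chrX:47582186-47582435 on the plus strand and TIMP3 at chr22:32801455-32801704 on the plus strand.
TFPI2: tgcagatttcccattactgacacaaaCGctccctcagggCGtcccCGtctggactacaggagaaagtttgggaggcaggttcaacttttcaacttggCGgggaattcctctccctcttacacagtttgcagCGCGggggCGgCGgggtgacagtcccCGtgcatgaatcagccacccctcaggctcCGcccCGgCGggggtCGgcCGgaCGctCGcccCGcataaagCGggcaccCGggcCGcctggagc
TIMP1: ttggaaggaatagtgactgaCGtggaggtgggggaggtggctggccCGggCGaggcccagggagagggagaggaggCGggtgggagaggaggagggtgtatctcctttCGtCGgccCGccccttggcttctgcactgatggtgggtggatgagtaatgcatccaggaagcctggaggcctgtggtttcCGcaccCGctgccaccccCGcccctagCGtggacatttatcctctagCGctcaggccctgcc
TIMP3: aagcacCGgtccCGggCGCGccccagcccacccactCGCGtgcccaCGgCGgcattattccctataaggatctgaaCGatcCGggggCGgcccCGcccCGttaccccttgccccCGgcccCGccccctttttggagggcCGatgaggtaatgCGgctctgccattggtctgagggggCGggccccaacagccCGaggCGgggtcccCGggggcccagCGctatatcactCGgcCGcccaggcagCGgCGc
The stretches hold 20 CpG pairs for TFPI2, 12 for TIMP1 and 26 for TIMP3, against a median of 11 over 35114 promoters of the same length, and their GC content is 64.4%, 64.8% and 72.4%. TFPI, whose level varied little, has 2 CpG pairs in its 250 bases and a GC content of 38.4%. SERPINE2 has 2 listed starts, with 28 and 6 CpG pairs. A search on both strands for the TATA box TATAAA, the AP-1 sites TGACTCA and TGAGTCA, the TEAD site GGAATG, the E-box CACGTG and the CArG box found none of them in the stretches of TFPI2, TIMP1, TIMP3 and TFPI. It found 1 E-box before the SERPINE2 start with fewer CpG pairs, 87 bases upstream. Over all 35114 stretches the shares with a match were 10.7% for the TATA box, 4.2% for the AP-1 sites, 11.9% for the TEAD site, 6.35% for the E-box and 1.16% for the CArG box.

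Genes of the same protein families, of the proteases they act on and of the receptors that clear their complexes formed lists of 219 genes, of which 115 were tested among the knockout libraries and 97 among the double-loss ones. In SMARCA4 knockout with control knockdown, 13 of 97 rose and 5 fell against wild type with control knockdown (18.6%, against 6.09% of all genes). In the SMARCA4 clones, whose comparisons chose the members, 27 were higher and 10 lower of 115 in 2878-4 (32.2%, against 11.3% of all genes) and 28 higher and 6 lower in 2878-6 (29.6%, against 10.2%), as a description. In all 21 other clones the called share of the lists was also above that of all genes, by a median of 2.7 times, with 1.17 times in DPF1 as the lowest and 3.97 times in SMARCA2 as the highest ratio. By list, 2 of 4 relatives of A2M rose in SMARCA4 knockout with control knockdown (median log2 fold change 2.09, against -0.013 for all genes), 2 of 14 coagulation and plasminogen genes rose and none of them fell (0.296), and 2 of 8 matrix metalloproteinases rose (0.362). Of 19 ADAM and ADAMTS proteases 3 rose and 2 fell (0.0893), and of 9 other serpins 1 fell (-0.10). Of 8 other secreted serine proteases 2 rose and 1 fell (0.143), of 13 clearance receptors 1 rose and 1 fell (0.184), of 2 Kazal inhibitors 1 rose (0.765), and among 5 CAP relatives of PI15, 8 other Kunitz inhibitors, 3 other metalloproteinase inhibitors, 3 cystatins and calpastatin and 1 WAP inhibitor none passed. In SMARCA4 clone 2878-4, as a description, 5 of 13 other serpins were higher and 1 lower, and the counts were the same in 2878-6. Their median log2 fold changes were 1.01 in 2878-4 and 0.725 in 2878-6, against -0.0198 and -0.0208 for all genes. Of 8 other Kunitz inhibitors, 1 was higher in 2878-4 and 1 in 2878-6.

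Some listed genes were called the same way in both SMARCA4 clones and in SMARCA4 knockout with control knockdown. Those with at least 5 CPM in the higher group of each comparison numbered 9, with 7 higher and 2 lower. The share of all genes that met these conditions was not counted. Passing in the double-loss comparison was a condition of the choice, so the adjusted p-values given here are no separate evidence. F3, tissue factor, which TFPI restrains, averaged 9.98 ± 5.04 CPM in SMARCA4 knockout with control knockdown and 1.71 ± 0.555 CPM in wild type with control knockdown (SD, n = 2 each, log2 fold change 2.48, SE 0.623, adjusted p = 0.0318). PROCR, the endothelial protein C receptor, averaged 55.1 ± 5.08 CPM in SMARCA4 knockout with control knockdown and 18.6 ± 0.243 CPM in wild type with control knockdown (1.52, adjusted p = 0.00106). The proteases ADAMTS9 (2.70, adjusted p = 0.00101), ADAMTS3 (1.42, adjusted p = 0.00112), which processes procollagen and VEGFC, MMP24 (1.43, adjusted p = 0.00665), a membrane-bound metalloproteinase, and PRSS35 (1.25, adjusted p = 0.00562) rose, as did SPOCK1 (1.65, adjusted p = 0.0462), a proteoglycan with a Kazal-like domain. HTRA1, a secreted serine protease, fell to 2.90 ± 0.197 CPM in SMARCA4 knockout with control knockdown, against 22.6 ± 7.49 CPM in wild type with control knockdown (-3.0, adjusted p = 2.52e-04). SERPINF1, the serpin known as pigment epithelium-derived factor, which has no inhibitory activity, fell to 19.7 ± 9.12 CPM in SMARCA4 knockout with control knockdown, against 75.7 ± 21.2 CPM in wild type with control knockdown (-1.99, adjusted p = 0.00167).

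In the ACTB clone 9 listed genes were higher and 4 lower of 115 (11.3%, against 5.1% of all genes), as a description. The highest folds among those with at least 5 CPM were those of ADAM12, with 5.69 ± 1.05 CPM in ACTB and 0.513 ± 0.186 CPM in wild type, PRSS23, with 15.6 ± 1.99 CPM in ACTB and 2.16 ± 0.353 CPM in wild type, and GLIPR1, a CAP relative of PI15, with 10.8 ± 0.829 CPM in ACTB and 2.00 ± 0.436 CPM in wild type (SD, n = 3 each). Of the 13 other serpins and the 3 other metalloproteinase inhibitors none was past the limits in this clone. In ARID2 knockout with SMARCA4 knockdown 13 listed genes rose and 9 fell of 97 (22.7%, against 9.31% of all genes), and in SMARCA4 knockout with ARID2 knockdown 16 rose and 8 fell (24.7%, against 8.55%).

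**Figure D5:**
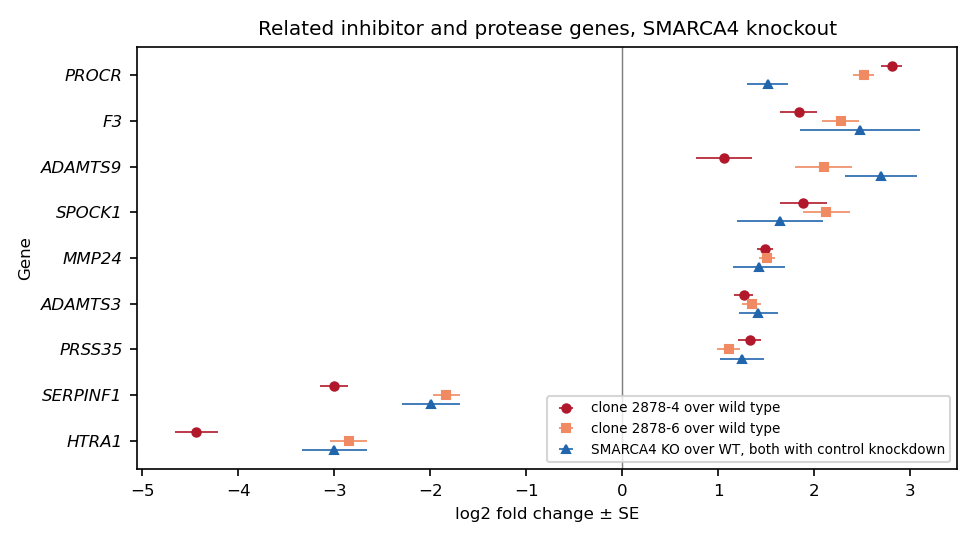
Log2 fold change with its SE for the 9 listed protease and inhibitor genes called in the same direction in SMARCA4 clones 2878-4 and 2878-6 over wild type (n = 3 each) and in SMARCA4 knockout over wild type, both with control knockdown (n = 2 each). The genes shown also had at least 5 CPM in the higher group of each comparison. Of the 9 genes 7 lie right of 0 in all 3 comparisons, and SERPINF1 and HTRA1 lie left of 0 in all 3.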

How the data were processed

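The authors deposited gene-level tables of estimated counts for the knockout and the double-loss libraries and a table of log2 TPM, quantile-normalized as its deposited name states. Per the submitters' processing notes, Trimmomatic, Bowtie, Picard and DESeq2 were used with the GRCh37 (hg19) build. Which tool and annotation produced the counts is not given in the sources used here. Estimated counts were rounded to whole numbers. The lowest listed count was 1. In all tables, 8 columns that matched no sample were not used. Genes were filtered with filterByExpr of edgeR (4.0.16, R 4.3.3), scaled by TMM and tested with the quasi-likelihood test, all groups of a table in 1 fit, with Benjamini-Hochberg adjustment over all genes tested. Calls needed an adjusted p of at most 0.05 and a log2 fold change of 1 or more in size. The fit was tested on simulated data.

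CPM used the library totals, a floor of 3 counts per library bounds folds against the lowest listed value, and likeness used log2(CPM + 0.5). Counting intervals and floors cover counting error only. Members and lists were chosen with earlier results of these data known. Named genes are all members, listed genes called the same way in both SMARCA4 clones and the double-loss SMARCA4 knockout, the most changed listed genes of the ACTB clone, and listed genes called in at least 12 of 24 clones, each with at least 5 CPM in some group. Alternatives were RLE size factors, no filter, DESeq2 (1.42.0), a replicate block, counts less 1, limma (3.58.1) on log2 TPM, the libraries compared only, and each wild-type library or the same replicate of every clone left out. Counts without the SMARCC2 clone, correlations without the highest groups and the A2M bound without single wild-type libraries were added after seeing the data. No pair of libraries of the same group agreed within sampling noise, and pairs from different groups were not compared.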

Additional observations from a re-analysis of the deposited data

Results flagged for a closer look

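TFPI2 differed between the clones of ARID1A. Its level was 1.22 higher on the log2 scale in 618-10 than in 618-3 (edgeR's quasi-likelihood test, adjusted p = 4.58e-04), with every 618-10 library above every 618-3 library, although both clones lack the same gene. Against wild type, TFPI2 was called higher in 618-10 (1.57) and did not pass in 618-3 (0.34, adjusted p = 0.491). The 618-3 libraries held 15 to 21 TFPI2 counts each.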

How the results depend on the processing

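No result reversed under any alternative. TFPI2 between the ARID1A clones was 1.23 and no longer passed in a fit of only the libraries compared, and ranged from 1.11 to 1.30 when the same replicate of both clones was left out; the cause was not tested. Such fits hold fewer libraries. In that smaller fit A2M was called in 1 clone rather than 3 and SERPINE2 in 5 rather than 8, and with replicates left out SERPINE2 was called in 5 to 8. Other counts of called clones stayed within 1.5 times. Single log2 fold changes counted as unchanged if they stayed called or stayed uncalled. In the comparisons that chose the members, they did so within a fixed multiple of the SE. Left out were TFPI2 between the ARID1A clones and PI15 in the double-loss SMARCA4 knockouts against wild type. So were TFPI2 and TIMP1 in ARID2 knockout with SMARCA4 knockdown against wild type. Unchanged were 70 of 74 with DESeq2, 73 of 74 with RLE size factors, 72 of 74 without a filter and 74 of 74 with 1 count taken off. With limma on log2 TPM, which lacks SMARCC2 and the double-loss libraries, 53 of 56 were. In the smaller fit 64 of 71 were, and 375 of 397 with a library left out. TIMP1 in wild type with both knockdowns was -2.62 without replicate 2 of that group (adjusted p = 0.0268), and TIMP3 between ARID2 knockout with SMARCA4 knockdown and with control knockdown was 1.48 without replicate 2 of the first (adjusted p = 0.034). Leaving out a lone library of a pair assumes that the remaining one varies like the other groups.

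Replicate numbers shared between groups pair no samples by the labels. Deviations of same-numbered libraries correlated above 0.1 in every pair in 5 of 24 clones, with r from -0.309 to 0.444 in all, while those of the double-loss libraries lay between 0.0941 and 0.527. With a replicate block PI15 was called in 16 clones rather than 15, its double-loss change in SMARCA4 knockout was 8.05, and 71 of 74 single fold changes were unchanged as defined above. Members near 1 count (A2M and TFPI2) are limited by depth, and clones without a second isolate cannot separate gene loss from the clone.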

Other observations

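Among 75 listed genes that are no members and reached 5 CPM in some group, 5 (6.67%) were called in at least 12 of the 24 knockout clones, against 285 of 11947 genes in all (2.39%). The complement gene C3, whose product is a relative of A2M, was higher in 8 clones and lower in 5, with a mean of 14.7 CPM in ARID1A 618-10, its highest group, against 0.933 CPM in wild type. ADAMTS9, a matrix metalloprotease, was higher in 11 and lower in 2, with 23.1 CPM in ARID1A 618-3 against 4.76 CPM in wild type. ADAM12, a membrane-anchored metalloprotease, was higher in 10 and lower in 6. PCSK5, a proprotein convertase, was lower in 11 and higher in 2, with its lowest mean, 0.729 CPM, in SMARCD1 against 5.55 CPM in wild type. LRP1B, a member of the LDL receptor family, was lower in 12 and higher in 2, with 0.558 CPM in ARID1A 618-10 against 4.00 CPM in wild type. These counts include the SMARCA4 and ACTB clones.

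Across the 25 group means of log2(CPM + 0.5) in the knockout table, the members that varied most alike were TIMP1 and TIMP3 (Pearson r 0.702, or 0.67 without the ACTB clone), followed by A2M and TIMP2 (0.543) and PI15 and TFPI2 (0.501). The A2M and TIMP2 coefficient rested on the ACTB clone and was 0.158 without it, and that of PI15 and TFPI2 was 0.184 over 23 groups without both SMARCA4 clones. The 25 means share libraries and depth across genes.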
